A study of Homo sapiens with 6 samples.

Results

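Transcripts of glycolysis, lactate metabolism and pyruvate dehydrogenase were measured in HS578T cells with an EP300 expression vector and in HS578T cells with the empty vector. The gene module was a list of 36 genes that runs from the hexokinases to the pyruvate dehydrogenase complex. Members were matched by gene symbol to the platform annotation, with 1 probe set per gene (the one with the highest mean over all arrays, had there been several). In all, 32 of the 36 had a named probe set, 1 each, among 21448 probe sets and 17687 distinct named genes. The other members, PFKFB4, SLC16A1, SLC16A3 and PDP2, were not analysed here, so neither of the listed lactate transporters has a value.

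HS578T is an established human breast carcinoma line, and EP300 encodes a lysine acetyltransferase that co-activates transcription. The control group was stably transfected with pcDNA 3, and the EP300 group with pcDNA 3 carrying EP300 cDNA. Transfectants of both groups were selected with G418 as pools of at least 200 clones and kept in DMEM of low glucose content with insulin, glutamine, G418 and 10% fetal calf serum. Each group had 3 cultures described as independent, with 1 whole-transcript Affymetrix array per culture. The sources used here do not say whether the 3 cultures of a group came from 1 pool of clones, so the tests measure the spread between cultures. All values below are the authors' deposited values, taken as log2, and the number of arrays limits their precision. The level of EP300 itself was not analysed here.

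Glycolysis splits glucose into pyruvate in the cytosol, and lactate dehydrogenase turns pyruvate into lactate and back. Pyruvate that enters the mitochondrion through its carrier is oxidised to acetyl-CoA by the pyruvate dehydrogenase complex, which kinases (PDK) switch off and phosphatases (PDP) switch on. Several of these genes are known targets of the hypoxia-inducible factor HIF, for which EP300 is a known co-activator, and many tumour lines make lactate even with oxygen present.

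The array medians lay between 4.46 and 4.50 and the lower quartiles between 3.47 and 3.50. Mesenchymal markers of the line (VIM, CD44, FN1, SNAI2 and ZEB1) read between 9.98 and 18.6 on every array. The 6 epithelial and luminal markers measured read between 2.08 and 7.72, with KRT8 the highest, and the 6 leukocyte and endothelial markers between 2.62 and 5.17. The table holds no detection calls, so the level of background is unknown. Of the 32 members, 4 had a mean below all array medians (PFKFB2, ENO3, PDK3 and PDK4), and of these PDK4 lay below all lower quartiles. At the other end GAPDH sat at the ceiling of the values, 19.93, on all 6 arrays and gives no information on a difference.

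No member passed the threshold. By limma with Benjamini-Hochberg adjustment over all probe sets, 0 of 32 members had an adjusted p below 0.05, against 0 of 21448 probe sets (0%), and the lowest adjusted p among the members was 0.689. At an unadjusted limma p below 0.05 there were 4 members that read lower in EP300 cultures (PDK1, HK1, PGK1 and PFKFB2), which is 12.5% of the members, beside 3.07% of all probe sets. In the upward direction there were 0 members, beside 3.45% of all probe sets. The 3 EP300 arrays lay wholly below the 3 control arrays for 6 members (HK1, PFKL, TPI1, PGK1, LDHA and PDK1), which is 18.8%, beside 5.91% of all probe sets. They lay wholly above for 3 members (ENO3, LDHB and PDK2), which is 9.38%, beside 6.3%. Among the 10724 probe sets above the median level, where most members lie, the corresponding shares were 3.44%, 4.15%, 6.43% and 7.38%. No test was made of the members' shares, since the list was chosen with results of these data known.

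The module as a whole did not lie to one side. Of the 31 members that varied, 16 lay lower in the EP300 cultures and 15 higher, and the median difference (EP300 minus control) was -0.06 beside 0.0014 over all probe sets. Differences ran from -0.93 for PDK1 to 0.60 for PFKM. The median size of a difference, whatever its sign, was 0.229 for the members and 0.2 for all probe sets. The median within-group SD was 0.246 for the members and 0.315 for all probe sets.

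**Figure D1:**
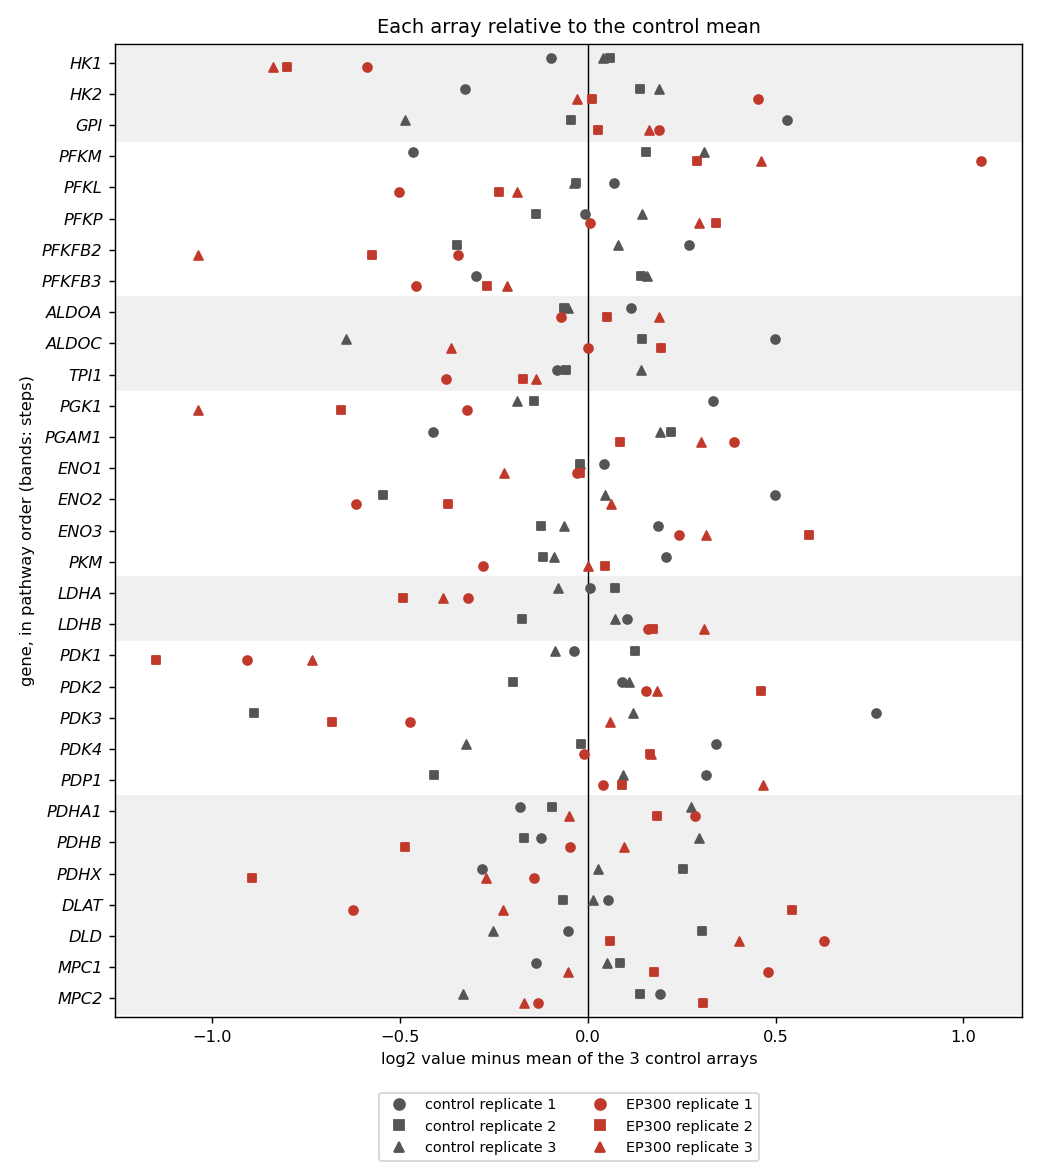
Log2 value of each array minus the mean of the 3 control arrays (x axis) for the 31 members that varied, in pathway order with bands for the steps (y axis). Grey marks are control arrays and red marks EP300 arrays, and the marker shape gives the replicate number. All 3 red marks lie well to the left of the grey marks for PDK1 and HK1, whose mean differences are -0.93 and -0.74, and for most genes the colours overlap.

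The clearest separation was in PDK1, a pyruvate dehydrogenase kinase that holds pyruvate back from the mitochondrial complex. PDK1 (probe set TC0200009978.hg.1) read 8.53, 8.70 and 8.48 in the control cultures and 7.66, 7.42 and 7.84 in the EP300 cultures. The groups did not overlap, and the highest EP300 culture lay well below the lowest control culture. The mean was 8.57 ± 0.11 (SD, n = 3) in control and 7.64 ± 0.21 (SD, n = 3) in EP300 cultures, a 1.91-fold lower level. The difference of -0.93 ± 0.21 (SE) (95% interval -1.41 to -0.45, limma adjusted p = 0.689) ran from -1.03 to -0.82 when any 1 array was left out.

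The other kinases and the phosphatase had smaller differences, of both signs. PDK2 read 7.41, 7.12 and 7.43 in control and 7.47, 7.78 and 7.50 in EP300 cultures, a difference of 0.27 ± 0.21 (SE) with the EP300 cultures on the high side and no overlap. It was 0.17 without control replicate 2 or EP300 replicate 2. PDK3 spread widely, from 3.20 to 4.85 in control and from 3.41 to 4.15 in EP300 cultures. PDK4 read between 3.08 and 3.75 on all arrays, where background is unknown. PDP1, the phosphatase that reactivates the complex, read 7.92 ± 0.37 (SD, n = 3) in control and 8.12 ± 0.23 (SD, n = 3) in EP300 cultures, with overlap.

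Hexokinases trap glucose as glucose 6-phosphate, and their isoforms had differences of opposite sign. HK1 (TC1000007891.hg.1), the hexokinase found in most tissues, read 8.12, 8.28 and 8.26 in control and 7.63, 7.42 and 7.39 in EP300 cultures. All 3 EP300 cultures lay below all 3 control cultures, and the spread within each group was small beside the gap. The means of 8.22 ± 0.09 and 7.48 ± 0.13 (SD, n = 3 each) correspond to a 1.67-fold lower level in EP300 cultures. The difference was -0.74 ± 0.20 (SE) (95% interval -1.20 to -0.29, limma adjusted p = 0.735), and lay between -0.82 and -0.69 with any 1 array left out. HK2, the inducible hexokinase of many tumours, read 5.17, 5.63 and 5.68 in control and 5.95, 5.51 and 5.47 in EP300 cultures. These groups overlapped, and the difference of 0.14 ± 0.24 (SE) changed sign without control replicate 1 (-0.02) or EP300 replicate 1 (-0.0089). GPI, which isomerises glucose 6-phosphate, differed by 0.13 ± 0.27 (SE), and its control cultures spanned 10.44 to 11.46.

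At the phosphofructokinase step, the committed step of glycolysis, the subunits had differences of both signs. PFKM, the muscle-type subunit, read 5.05, 5.67 and 5.82 in control and 6.56, 5.81 and 5.98 in EP300 cultures. Its difference of 0.60 ± 0.29 (SE) was the highest of the module, with overlap of the groups, an adjusted limma p of 0.787, and smaller values without control replicate 1 (0.37) or EP300 replicate 1 (0.38). PFKL, the liver-type subunit, was lower by -0.31 ± 0.20 (SE), with 6.92 to 7.03 in control and 6.45 to 6.77 in EP300 cultures and no overlap. PFKP, the platelet-type subunit, read 13.29 ± 0.14 in control and 13.50 ± 0.18 in EP300 cultures (SD, n = 3 each), with overlap.

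The PFKFB enzymes make and break fructose 2,6-bisphosphate, the activator of phosphofructokinase. PFKFB2 read 4.16, 3.54 and 3.97 in control and 3.55, 3.32 and 2.85 in EP300 cultures. The groups touched, since the lowest control culture and the highest EP300 culture had nearly the same value. The difference was -0.65 ± 0.26 (SE) (95% interval -1.24 to -0.07, limma adjusted p = 0.748). The EP300 mean of 3.24 lay below the lower quartile of every array, and a fold from such a level cannot be interpreted without the background. PFKFB3 differed by -0.31 ± 0.22 (SE), with overlap.

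The aldolase and triose steps showed small differences. ALDOA, the main aldolase of most cells, read 16.22 ± 0.10 in control and 16.28 ± 0.13 in EP300 cultures (SD, n = 3 each). ALDOC spanned 4.27 to 5.41 in control and 4.55 to 5.11 in EP300 cultures. TPI1, which interconverts the triose phosphates, read 11.38, 11.41 and 11.60 in control and 11.09, 11.29 and 11.33 in EP300 cultures. The EP300 cultures were all lower, by -0.23 ± 0.20 (SE, limma adjusted p = 0.893), and the 95% interval from -0.69 to 0.23 included 0.

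**Figure D2:**
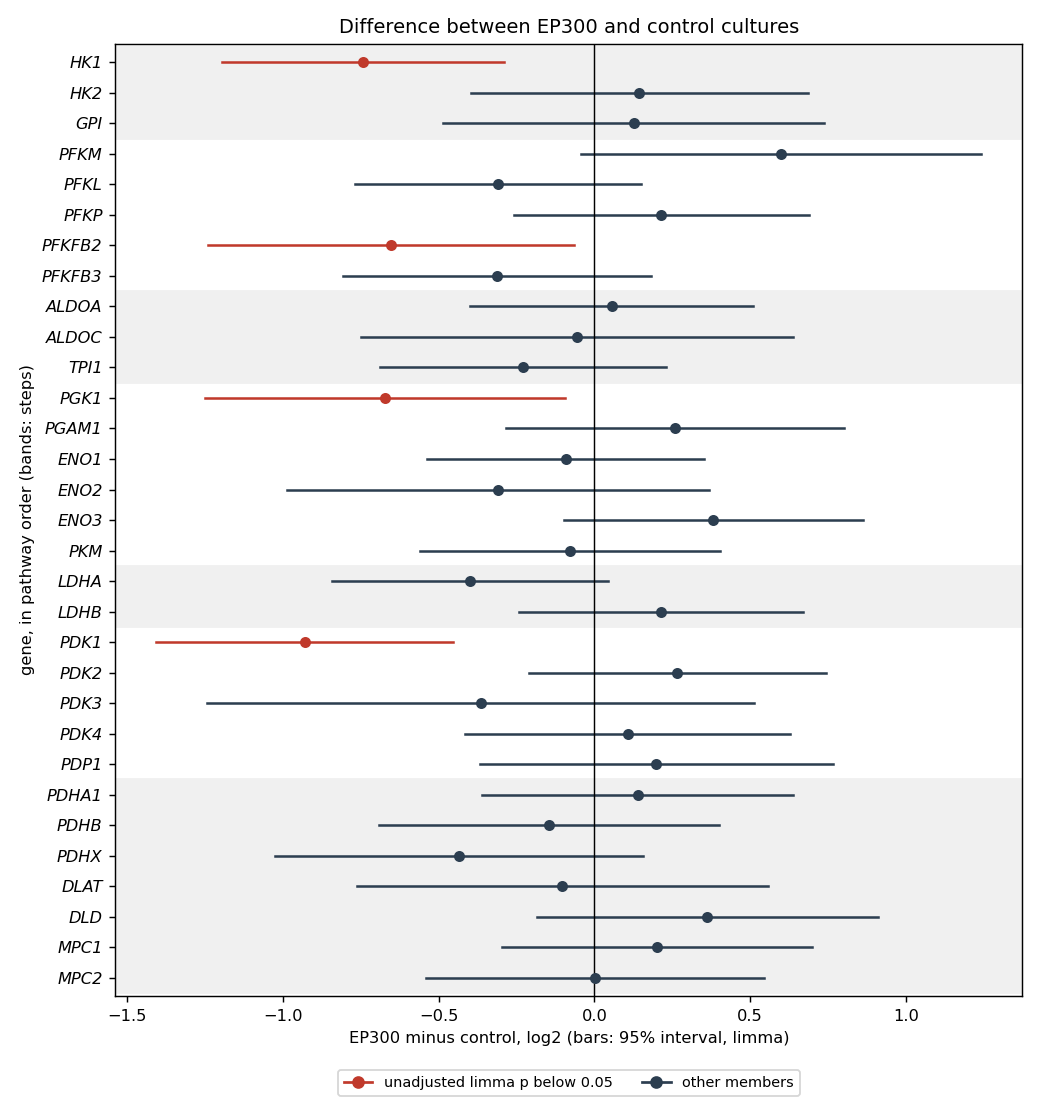
Difference EP300 minus control on the log2 scale (x axis) for the 31 members that varied, in pathway order (y axis), with points for the limma estimate and bars for its 95% interval. The 4 red intervals, for HK1, PFKFB2, PGK1 and PDK1, lie wholly below 0, and the other 27 include 0.

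In the steps that yield ATP, PGK1 had the most negative difference. PGK1 (TC0X00007709.hg.1) encodes phosphoglycerate kinase. It read 14.44, 13.97 and 13.92 in control and 13.79, 13.45 and 13.07 in EP300 cultures. The groups did not overlap, although EP300 replicate 1 came close to the lower control cultures. The means were 14.11 ± 0.29 and 13.44 ± 0.36 (SD, n = 3 each), a 1.59-fold lower level in EP300 cultures. The difference of -0.67 ± 0.26 (SE; 95% interval -1.25 to -0.09, limma adjusted p = 0.748) lay between -0.85 and -0.49 with any 1 array left out. For PKM, pyruvate kinase, the groups overlapped, with means of 14.08 ± 0.18 in control and 14.01 ± 0.18 in EP300 cultures (SD, n = 3 each). PGAM1, phosphoglycerate mutase, differed by 0.26 ± 0.24 (SE), which was 0.05 without control replicate 1.

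The enolases convert 2-phosphoglycerate to phosphoenolpyruvate. ENO1 read between 19.50 and 19.76, close to the ceiling, and had the same value on 3 of the 6 arrays within 0.001, so its difference of -0.09 ± 0.20 (SE) carries little information. ENO2, the neuronal type, differed by -0.31 ± 0.30 (SE), with overlap, and by -0.06 without control replicate 1. ENO3, the muscle type, read 3.65, 3.34 and 3.40 in control and 3.71, 4.05 and 3.78 in EP300 cultures. The EP300 cultures were all higher, by 0.38 ± 0.21 (SE), at a level below all array medians.

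The lactate dehydrogenase subunits lay on opposite sides. LDHA (TC1100007003.hg.1), the subunit that favours lactate formation, read 19.81, 19.87 and 19.72 in control and 19.48, 19.31 and 19.41 in EP300 cultures. The EP300 cultures were all lower, by -0.40 ± 0.20 (SE) (95% interval -0.84 to 0.04, limma adjusted p = 0.791). The control mean lay 0.133 below the ceiling and the EP300 mean 0.532 below it, so control values much higher than these could not have been read in full. With a variance trend and robust estimation the limma adjusted p of LDHA was 0.275, the lowest of any member in any setting. The difference of -0.40 was the same there, and only the variance estimate changed, at values close to the ceiling. In the main fit the limma adjusted p was lower for PDK1 (0.689) and HK1 (0.735) than for LDHA. LDHB, the subunit that favours pyruvate formation, read 13.24, 12.96 and 13.21 in control and 13.30, 13.31 and 13.45 in EP300 cultures. These EP300 cultures were all higher, by 0.21 ± 0.20 (SE), with a 95% interval from -0.24 to 0.67 and a value of 0.13 without control replicate 2.

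**Figure D3:**
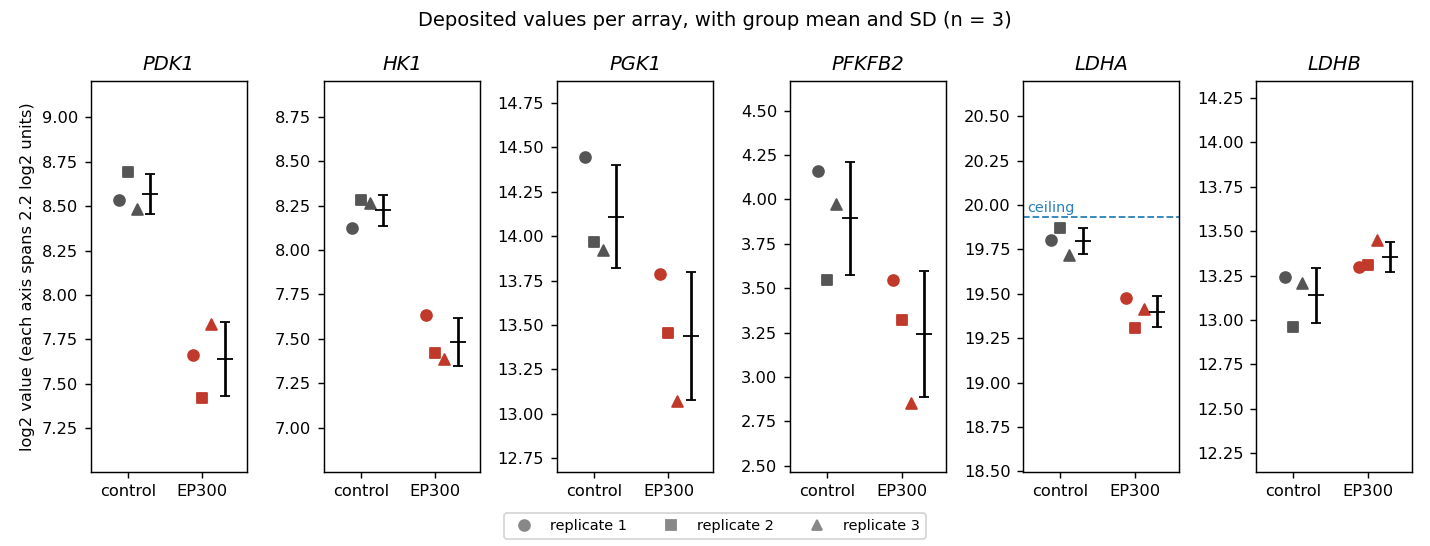
Deposited log2 values (y axes, all of equal span) of PDK1, HK1, PGK1, PFKFB2, LDHA and LDHB in the 3 control and 3 EP300 arrays, with the group mean and SD beside the points. The dashed line in the LDHA panel is the ceiling of 19.93. The EP300 points lie below the control points for PDK1, HK1, PGK1 and LDHA, above them for LDHB, and touch them for PFKFB2.

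In pyruvate entry and the pyruvate dehydrogenase complex the groups overlapped for all 7 genes. Over all probe sets only 5.91% lay wholly lower and 6.3% wholly higher, so overlap in so short a list is no trait of this step. The carrier subunits MPC1 and MPC2 differed by 0.20 ± 0.22 and 0.0019 ± 0.24 (SE). The E1 subunits PDHA1 and PDHB, which decarboxylate pyruvate, differed by 0.14 ± 0.22 and -0.15 ± 0.24. DLAT, the E2 acetyltransferase, read from 6.17 to 6.29 in control and from 5.61 to 6.78 in EP300 cultures, so that its EP300 cultures lay on both sides of the control range. DLD, the E3 subunit shared with other dehydrogenases, differed by 0.36 ± 0.24, and by 0.24 without control replicate 3 or 0.23 without EP300 replicate 1. PDHX, which anchors E3 in the complex, read 6.34, 6.87 and 6.65 in control and 6.47, 5.72 and 6.35 in EP300 cultures. Its difference of -0.44 ± 0.26 had the smallest p of this step (limma adjusted p = 0.822) and was -0.21 without EP300 replicate 2. The limma adjusted p of all 7 genes lay between 0.822 and 0.999.

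For 8 pairs of members that share a step, the within-array log2 ratio is given as a description of how far their values lay apart. A ratio between probe sets has no meaning as a level, and only its difference between the groups is given. The ratio of PDK1 to PDK2 was lower in EP300 cultures by -1.20, and that of PDK1 to PDP1 by -1.13. The ratio of LDHA to LDHB was lower by -0.61, and that of HK2 to HK1 was higher by 0.89. In these 4 pairs the 3 EP300 arrays did not overlap the 3 control arrays, which restates the members' differences given above and is no further evidence for them. The pairs were chosen with earlier results of these data known, and no pair could reach an exact two-sided permutation p below 0.1 with 3 arrays against 3, so no test is drawn from them. The ratio differences of PFKP to PFKM (-0.39), PDK1 to PDK3 (-0.56), ENO2 to ENO1 (-0.22) and ALDOC to ALDOA (-0.11) came with overlapping groups. The first was -0.06 without EP300 replicate 1, and the second -0.06 without control replicate 2.

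**Figure D4:**
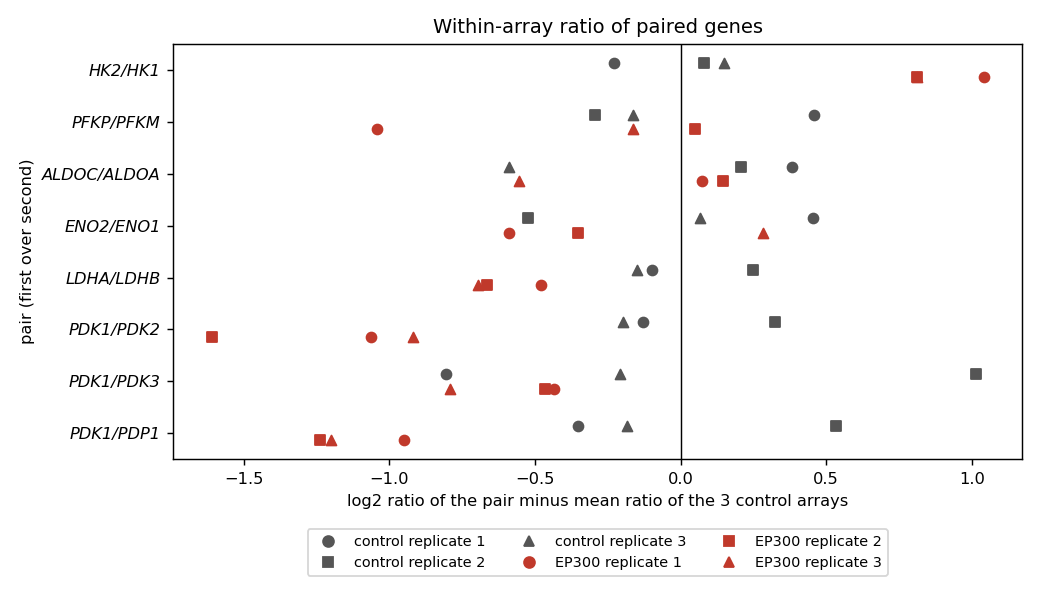
Within-array log2 ratio of 8 gene pairs minus the mean ratio of the 3 control arrays (x axis), with pairs on the y axis. Red EP300 marks lie apart from grey control marks for HK2/HK1 (difference 0.89), LDHA/LDHB (-0.61), PDK1/PDK2 (-1.20) and PDK1/PDP1 (-1.13), and overlap them for the other 4 pairs.

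Promoter windows of the members were searched for the core letters of HIF sites, because several members are known HIF targets. RefSeq windows of assembly GRCh38.p14, each 300 bases long and ending 50 bases past the annotated gene start, were matched for 30 of the 32 members, with PFKFB2 and PDP1 unmatched. ACGTG, on either strand, was in 11 of 30 member windows (36.7%), in 21.6% of all 27305 windows and in 23.6% of the 14250 windows of genes on the array. GCGTG, on either strand, was in 16 of 30 (53.3%), in 36.3% of all windows and in 44.4% of those of array genes. The palindrome CACGTG, which holds ACGTG on both strands and is also the E-box of MYC and MAX, was in 4 of 30 (13.3%), in 7.43% and in 8.69%. The 4 windows with at least 3 matches to ACGTG are printed 5′ to 3′ on the gene's strand, with both HIF core motifs and their reverse complements in capitals. They are LDHA at chr11:18394313-18394612 (plus strand), PGK1 at chrX:78103998-78104297 (plus strand), ALDOC at chr17:28576846-28577145 (minus strand) and PDHB at chr3:58433783-58434082 (minus strand).
LDHA: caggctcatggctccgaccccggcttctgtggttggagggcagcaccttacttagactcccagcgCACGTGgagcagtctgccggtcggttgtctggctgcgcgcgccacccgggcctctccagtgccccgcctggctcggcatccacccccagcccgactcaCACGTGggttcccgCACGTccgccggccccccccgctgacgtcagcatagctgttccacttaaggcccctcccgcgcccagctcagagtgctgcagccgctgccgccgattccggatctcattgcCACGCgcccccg
PGK1: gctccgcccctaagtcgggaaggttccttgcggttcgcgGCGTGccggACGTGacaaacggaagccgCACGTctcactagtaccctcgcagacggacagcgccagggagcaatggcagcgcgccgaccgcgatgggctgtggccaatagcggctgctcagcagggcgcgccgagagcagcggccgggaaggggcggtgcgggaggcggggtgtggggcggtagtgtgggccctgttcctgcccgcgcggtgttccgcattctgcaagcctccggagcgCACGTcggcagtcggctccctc
ALDOC: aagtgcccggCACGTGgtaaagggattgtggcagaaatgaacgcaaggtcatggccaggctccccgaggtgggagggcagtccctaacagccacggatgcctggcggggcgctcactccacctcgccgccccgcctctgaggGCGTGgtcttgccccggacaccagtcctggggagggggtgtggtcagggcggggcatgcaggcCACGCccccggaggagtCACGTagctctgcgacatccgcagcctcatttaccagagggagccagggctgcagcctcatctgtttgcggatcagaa
PDHB: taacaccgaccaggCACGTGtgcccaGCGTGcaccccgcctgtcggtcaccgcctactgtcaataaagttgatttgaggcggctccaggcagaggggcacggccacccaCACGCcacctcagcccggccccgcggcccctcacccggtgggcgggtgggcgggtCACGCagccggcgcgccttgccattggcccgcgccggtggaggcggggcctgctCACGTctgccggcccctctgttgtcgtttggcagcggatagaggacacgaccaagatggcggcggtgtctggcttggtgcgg

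The 4 genes with these windows did not read alike. LDHA has 5 matches to ACGTG, of which its 2 palindromes account for all but 1, and PGK1 has 3. Both read lower in every EP300 culture, by -0.40 and -0.67. ALDOC and PDHB have 3 matches each, counting both strands of their palindrome, and differed by -0.06 and -0.15 with overlapping groups. Without that double count they would not pass the cut. HK2, with 2 matches and no palindrome, fell short of the cut and differed by 0.14 with overlapping groups. The windows of PDK1 and HK1 held none of the 3 motifs. Their GC content, 36.3% and 46.7%, was the lowest of all matched member windows, and other starts of these genes were not searched. The windows are set on the annotated gene start, which need not be the start used in HS578T, and a match is only a match of letters.

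Genes around the module gave a mixed picture, and again none passed the adjustment over all probe sets. In glucose entry and glycogen storage, 16 of 21 measured genes were lower (76.2%, beside 49.7% of all probe sets), with a median difference of -0.30. At an unadjusted limma p below 0.05 there were 3 lower (14.3%) and 1 higher (4.76%), beside 3.07% and 3.45% of all probe sets. GYS1, muscle-type glycogen synthase, read 11.95, 12.03 and 12.01 in control and 10.97, 11.30 and 10.57 in EP300 cultures. Its EP300 cultures were all lower, by -1.05 ± 0.24 (SE, limma adjusted p = 0.689). PGM2, a phosphoglucomutase of the same list, differed by -0.65 ± 0.24. SLC2A1, which encodes the main glucose carrier of many tumour cells, differed by -0.69 ± 0.23. SLC2A14, a transporter close in sequence to SLC2A3, differed by 0.46 ± 0.20 at a level below the array medians.

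Among 27 measured genes for other isoforms and modifiers of the same steps the median difference was -0.09. At an unadjusted limma p below 0.05 there were 2 lower (7.41%) and 1 higher (3.70%), beside 3.07% and 3.45% of all probe sets. G6PC3, a glucose 6-phosphatase, read 10.26, 10.12 and 10.02 in control and 9.11, 9.68 and 9.12 in EP300 cultures. The groups did not overlap, and the difference was -0.83 ± 0.23 (SE, limma adjusted p = 0.735). GAPDHS, the sperm form of GAPDH, was lower by -0.67 ± 0.22 at a level below the array medians, and PGAM5, a mitochondrial phosphatase named after the mutases, was higher by 0.81 ± 0.26.

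Pentose phosphate genes had a median of -0.10 over 11 genes, with 0 at an unadjusted limma p below 0.05 in either direction. Over all probe sets the shares at that p were 3.07% lower and 3.45% higher. Tricarboxylic acid cycle genes, which include the malic enzymes here, had a median of 0.06 over 21 genes. Of these, 1 was lower and 1 higher at an unadjusted limma p below 0.05 (4.76% each), beside 3.07% and 3.45% of all probe sets. The lower gene was OGDH, the E1 subunit of the 2-oxoglutarate dehydrogenase complex, at -0.59 ± 0.21 (SE). The higher gene was ME1, cytosolic malic enzyme, at 0.75 ± 0.22. Transcriptional regulators had a median of -0.04 over 22 genes. MXI1, an opponent of MYC, differed by -1.37 ± 0.24. It was the 1 regulator at an unadjusted limma p below 0.05 (4.55% of the list, beside 3.07% of all probe sets in that direction). HIF1A, the oxygen-regulated HIF subunit, read between 16.40 and 16.44 and had the same value on 4 of the 6 arrays within 0.001, so it carries little information on a difference. Its partner ARNT differed by -0.73 ± 0.33 (SE, limma adjusted p = 0.770) and its relative EPAS1 by -0.46 ± 0.23 (SE, limma adjusted p = 0.791), both with overlapping groups, and ARNT by -0.41 without EP300 replicate 2. Other HIF-pathway genes of that list had differences of both signs. EGLN1, EGLN2 and EGLN3 were higher by 0.16, 0.54 and 0.21, and EGLN3 lay below all lower quartiles. VHL and HIF1AN were lower by -0.19 and -0.08, and all 5 of these genes had overlapping groups. The HIF-pathway genes named here were picked out after their values were seen.

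**Figure D5:**
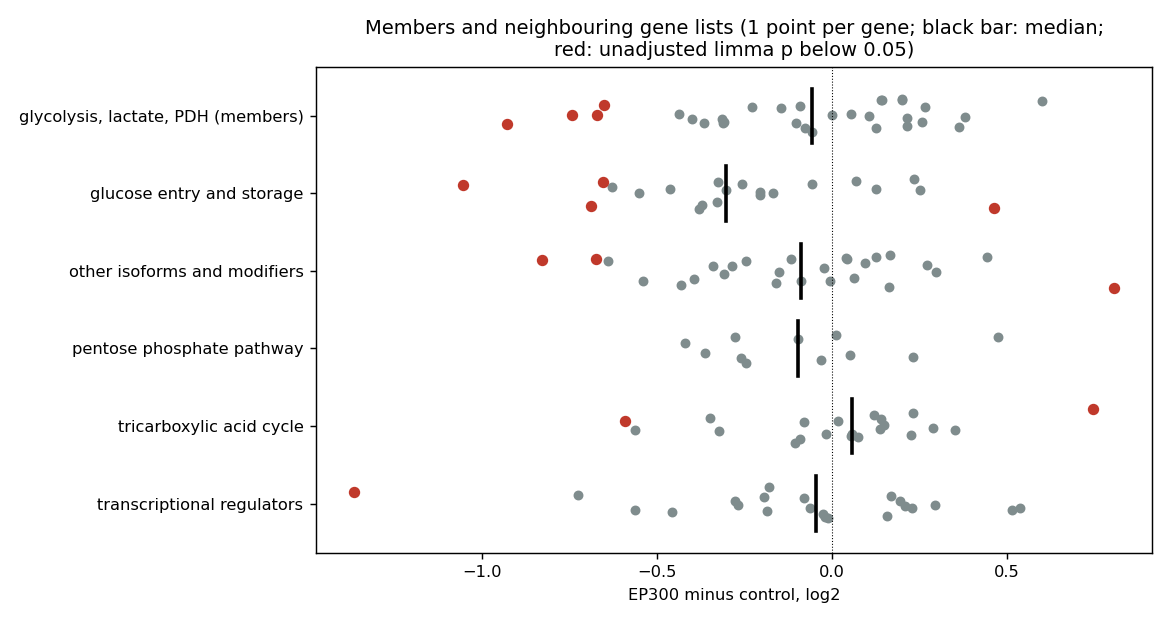
Difference EP300 minus control on the log2 scale (x axis) for the 31 varying members and the 5 neighbouring lists (y axis), with 1 point per gene, a black bar for the list's median and red points for an unadjusted limma p below 0.05. Medians run from -0.30 for glucose entry and storage to 0.06 for the tricarboxylic acid cycle, and the points of each list lie on both sides of 0.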

How the data were processed

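Total RNA was extracted and labelled material was made from it, both with commercial kits. That material was hybridised to Affymetrix whole-transcript arrays, per the labels' protocols. The authors deposited 1 value per probe set and array, and Partek 6.6 is named in the submitters' processing notes. How background, normalization and summarisation were handled, and on which genome build, is not stated in those notes or the labels. The deposited values were taken as log2 from their range (1.79 to 19.93), since no label states the scale. Probe sets were named from the platform annotation, which gives a symbol for 17709 of 21448.

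EP300 minus control was fitted over all probe sets with limma 3.58.1 (lmFit, eBayes; R 4.3.3), without filter or covariate, and adjusted by Benjamini-Hochberg at a threshold of 0.05. In 20 simulations of this comparison on 21448 probe sets, 200 were changed in each. The fit called 11.6% of log2 differences of 1, 89.5% of those of 2 and 98.9% of those of 3. Of its calls 4.86% were false. The simulated noise was independent and normal, with variances from the fit's own prior and no ceiling, so these shares hold under that model only. No change below 1 was simulated, whereas the members' differences ran from -0.93 to 0.60. Ratios of members are given without a test, since exact permutation of 3 arrays against 3 cannot go below 0.1.

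All members with a probe set are described. Those at an unadjusted p below 0.05, and the member with the smallest p in each step, are given in full. Of the neighbouring lists at most 4 genes at an unadjusted p below 0.05 are named. Beyond these, HIF1A, ARNT, EPAS1, EGLN1, EGLN2, EGLN3, VHL and HIF1AN were added after their values were seen. The members and lists were chosen with earlier results of these data known. Alternatives were quantile normalization, median centring, probe sets above the median level, the mean of a gene's probe sets, a variance trend with robust estimation, leaving out the 19 probe sets constant within 0.001, a replicate block, and leaving out each array.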

Additional observations from a re-analysis of the deposited data

How the results depend on the processing

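No member was called in any of the 13 alternative settings. Over all probe sets 4 were called with a variance trend and robust estimation, none of them a member, and 0 in the other settings. The count of members lower at an unadjusted p below 0.05 ran from 2 to 5 when 1 array was left out. It was 2 without control replicate 1, EP300 replicate 2 or EP300 replicate 3. PDK1 and HK1 were at that p in every setting, whereas PGK1 and PFKFB2 were not in those 3, nor PFKFB2 without control replicate 3 or, lacking the level, among probe sets above the median. The count of higher members ran from 0 to 1, the 1 being PFKM without control replicate 3 or EP300 replicate 2. The share of all probe sets at that p was not counted with 1 array left out, so these counts have no background beside them. The members' median difference was -0.00485 with quantile normalization, and from -0.127 to 0.0267 with 1 array left out. Its sign was thus not fixed, and 11 of the 31 varying members changed sign when some array was left out. Of the others, 10 kept their sign but shrank by more than 1.5 times when some array was left out (PFKM, PGAM1, ENO1, ENO2, LDHB, PDK2, PDHA1, PDHX, DLD and MPC1). The ratio of ALDOC to ALDOA ran from -0.408 to 0.109 and that of ENO2 to ENO1 from -0.480 to 0.00918 with 1 array left out. The cause was not tested. The replicate block left 4 members lower at an unadjusted p below 0.05. Deviations of arrays with the same number correlated between -0.0089 and -0.0015 over all probe sets. For arrays with different numbers the range was -0.004 to 0.0092. Correlations over all probe sets cannot show whether arrays with the same number were handled together. Probe sets near the ceiling (GAPDH, ENO1, LDHA) or at low levels (PFKFB2, ENO3, PDK3, PDK4) limit what can be read from them.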
